A study of Homo sapiens with 16 samples.

Results

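The replication-dependent histone genes were taken as every gene annotated as protein-coding whose name starts with HIST1H, HIST2H, HIST3H or HIST4H in the count tables of both cell lines. The rule used names only and gave 71 genes of 58735. They comprise 6 genes for the linker histone H1, 17 for H2A, 18 for H2B, 15 for H3 and 15 for H4. Of these, 55 belong to the HIST1 cluster on chromosome 6, 12 to HIST2 and 3 to HIST3 on chromosome 1, and 1, HIST4H4, lies alone on chromosome 12. The study measured mRNA by sequencing in MDA-MB-231 and SUM159PT, both established human cell lines from triple-negative breast cancer, that is, tumours without the oestrogen and progesterone receptors and without amplified HER2. Each line, labelled wild type, received by Lipofectamine either sgNTS, a non-targeting guide RNA, or sgYES1, a guide against YES1, a Src-family tyrosine kinase, and was collected after 48 h. There were 4 libraries for each of the 4 combinations of line and guide. The submitters call the replicates technical, so p-values measure only the spread between these samples.

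Replication-dependent histones package newly copied DNA and are made mainly in S phase. Their genes lack introns, and their mRNAs end in a conserved stem-loop bound by SLBP instead of a poly-A tail. Some of these genes also give polyadenylated transcripts that run past the stem-loop, mostly in cells that have stopped dividing or are differentiating. The libraries here were made from RNA captured on poly-T beads, so what follows describes the histone RNA that such capture retained, together with any RNA carried through it, and not the full pool of histone mRNA.

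The stem-loop letters are shown first because they separate the annotated ends of these genes. In the GENCODE 29 transcripts, the consensus of the histone stem-loop, 16 bases with 6 positions left free, was searched on the sense strand and found in 32 of the 71 histone genes (45.1%) and in 69 of 19613 other genes with a protein-coding transcript (0.352%). Each example below runs 5′ to 3′ with T for U, and its capitals mark the stem-loop pattern.
HIST1H2AC: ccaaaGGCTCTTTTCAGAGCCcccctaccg
HIST1H2BD: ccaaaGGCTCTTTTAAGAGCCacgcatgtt
HIST1H2BN: ccaaaGGCTCTTTTCAGAGCCactcagtct
HIST3H2A: ataaaGGCTCTTTTCAGAGCCacctactat
HIST1H3E: ccaaaGGCTCTTCTCAGAGCCaaccacttt
HIST1H4I: aaaaaGGCCCTTTTTAGGGCCcctaagctt
HIST1H4H: ccaaaGGCCCTTTTCAGGGCCgcccacttt
The form in HIST1H2AC, HIST1H2BN and HIST3H2A was shared by 17 genes, all of H2A, H2B or H3. HIST1H2BD carried the form of 5 H2B and H3 genes. The H4 genes held 2 other forms, that of HIST1H4H in 5 genes and that of HIST1H4I in 3. HIST1H3E held a form of its own, with a C in the loop. In the transcript each sequence was read from, the model continued after the stem-loop by 18 bases in HIST1H4H, 39 in HIST1H2BD, 212 in HIST1H4I, 377 in HIST1H2BN, 390 in HIST3H2A, 1114 in HIST1H2AC and 1862 in HIST1H3E. Other annotated transcripts of HIST1H4H and HIST1H2AC continued for up to 1655 and 1128 bases.

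No match was found in 39 genes, among them all 6 H1 genes. In 35 of the 71 genes, HIST1H2BK and HIST1H1C included, the annotated model stopped at the stop codon, so the stem-loop region and anything beyond it lay outside the counted bases. For these genes a missing match says nothing about the gene itself. The other 4 genes without a match, HIST1H2BJ, HIST1H1E, HIST1H4C and HIST1H1T, had 569, 57, 51 and 51 annotated bases past the stop codon, and the letters of the pattern were not in them.

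Promoter sequences are shown for genes whose level differed between lines or guides in the results that follow. RefSeq promoters of build GRCh38.p14 matched 61 of the 71 genes. Each sequence gives the 200 bases before the RefSeq start, 5′ to 3′ along the gene, and capitals mark matches, on either strand, to the 4 motifs spelled out after the sequences.
HIST1H2BK, chr6:27146859-27147058, minus strand: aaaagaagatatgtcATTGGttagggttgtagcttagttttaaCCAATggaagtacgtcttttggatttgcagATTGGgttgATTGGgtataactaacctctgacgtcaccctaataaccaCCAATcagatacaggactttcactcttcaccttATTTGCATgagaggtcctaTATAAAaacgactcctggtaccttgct
HIST1H1C, chr6:26056471-26056670, minus strand: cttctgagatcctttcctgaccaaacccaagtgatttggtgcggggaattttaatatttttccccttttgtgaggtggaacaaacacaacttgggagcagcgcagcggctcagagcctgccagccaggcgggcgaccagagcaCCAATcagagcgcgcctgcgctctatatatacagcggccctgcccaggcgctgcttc
HIST1H1E, chr6:26156129-26156328, plus strand: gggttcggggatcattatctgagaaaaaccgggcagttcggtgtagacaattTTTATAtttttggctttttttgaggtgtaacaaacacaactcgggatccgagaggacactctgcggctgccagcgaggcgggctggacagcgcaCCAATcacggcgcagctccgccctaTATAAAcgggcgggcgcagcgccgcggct
HIST1H4I, chr6:27139082-27139281, plus strand: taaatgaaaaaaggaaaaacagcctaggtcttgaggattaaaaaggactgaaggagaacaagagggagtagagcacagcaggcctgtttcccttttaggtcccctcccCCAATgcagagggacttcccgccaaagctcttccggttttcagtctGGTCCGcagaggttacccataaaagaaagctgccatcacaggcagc
HIST1H4H, chr6:26285535-26285734, minus strand: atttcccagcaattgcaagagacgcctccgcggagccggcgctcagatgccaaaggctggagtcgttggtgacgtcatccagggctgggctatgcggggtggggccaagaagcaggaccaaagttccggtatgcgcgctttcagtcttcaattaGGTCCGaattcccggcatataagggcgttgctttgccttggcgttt
HIST3H2A, chr1:228457874-228458073, minus strand: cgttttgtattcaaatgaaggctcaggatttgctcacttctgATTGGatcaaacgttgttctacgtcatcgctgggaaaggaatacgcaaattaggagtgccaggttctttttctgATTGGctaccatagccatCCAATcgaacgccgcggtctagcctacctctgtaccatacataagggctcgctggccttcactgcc
Over the full 250 bases before the start, CCAAT (or ATTGG on the other strand) stood in 51 of the 61 histone promoters (83.6%) against 33.0% of all 27305 promoters. It was found in every matched H1, H2A, H2B and H3 promoter and in 3 of 13 H4 promoters. TATAAA (or TTTATA) stood in 65.6% of the histone promoters and 11.1% of all. The octamer ATTTGCAT (or ATGCAAAT), a known element of H2B promoters, stood in 14 of 18 H2B and 11 of 14 H2A promoters against 1.66% of all. GGTCCG (or CGGACC), the core of the H4 element read by HINFP, stood in 12 of 13 H4 promoters against 9.33% of all. ATTGG and GGTCCG can overlap by their GG. The octamer and TATAAA stand in the HIST1H2BK sequence and the H4 element in those of HIST1H4I and HIST1H4H. The HIST3H2A and HIST1H1C windows each held CCAAT matches alone among these motifs. The H2A and H2B windows are not independent, since the annotation holds 12 head-to-head gene pairs with starts less than 500 bases apart, and 11 of these join an H2A to an H2B gene. A match describes letters in a window and not a bound site.

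Totals per library, in units of 1e6 counts, were 17.2 to 25.1 for MDA-MB-231 and 14.4 to 20.9 for SUM159PT. YES1, the targeted gene, lay between 107 and 113 counts per 1e6 counts (CPM, TMM-scaled) under sgNTS in MDA-MB-231 and between 41.6 and 44.3 under sgYES1. In SUM159PT it lay between 89.4 and 97.9 under sgNTS and between 38.3 and 40.2 under sgYES1, so the groups did not overlap in either line. PGR, CD3E and, in SUM159PT, KRT19 were at 0, ESR1 had at most 6 counts in any library, and VIM and KRT8 were high in both lines. ERBB2, listed with ESR1 and PGR, passed the filter on low counts in both lines, and these receptors summed to 107 CPM under sgNTS in each. CD14, listed as a leukocyte gene, passed it in MDA-MB-231, and PECAM1, listed for endothelium, in both lines. Of the 4 breast epithelial genes listed, 2 were at 0 in all SUM159PT sgNTS libraries. The library MDA-MB-231 sgNTS replicate 4 held 2.34% mitochondrial counts against 3.81% to 5.15% in the other 3 of its group. Without it, the counts of histone genes called were 1 higher and 2 lower for the guide in MDA-MB-231, 5 higher and 0 lower for the difference between lines and 11 higher and 9 lower between lines under sgNTS, against 1 and 2, 5 and 0, and 8 and 9 with it.

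Detection of the histone genes was sparse. In MDA-MB-231, 43 of 71 genes had a count in any of the 8 libraries, 29 had one in all 8, 12 reached a mean of 1 CPM and 3 reached 10 CPM. In SUM159PT the same numbers were 57, 40, 17 and 3. H2B had a count for 12 of 18 genes in MDA-MB-231 and 17 of 18 in SUM159PT, the highest share of any family in SUM159PT and level with H4 in MDA-MB-231. H1 had counts for 3 and 4 of 6 genes, H2A for 10 and 12 of 17, H3 for 8 and 12 of 15, and H4 for 10 and 12 of 15. A gene at 0 in all 8 libraries of a line may have a level of up to 0.0182 CPM in MDA-MB-231 or 0.0214 CPM in SUM159PT, from 3 counts over the summed totals, a limit that covers counting error only.

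Both lines gave 0 counts for 13 genes. HIST1H2AA and HIST1H2BA, a head-to-head pair known for expression in testis, were among them. HIST1H1B, HIST1H3I and HIST1H4L, neighbours within chr6:27866849-27873510, had 0 counts in all 16 libraries with no annotated exon of another gene over them. HIST1H3D and HIST1H2AD share 100% and 98.0% of their exon bases with AL031777.3, HIST1H2AK shares 100% with HIST1H2BN, and HIST1H2AM shares 88.0% with HIST1H3J. Whether that sharing lowers their counts was not tested. RN7SK, RMRP, RPPH1 and RN7SL1, abundant RNAs without a poly-A tail, were also at 0 in every library, so a 0 in these tables is not by itself evidence that the RNA is missing from the cells. HIST1H1T, the testis H1, had 2 counts in MDA-MB-231 and 0 in SUM159PT.

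A further 15 genes had counts in SUM159PT and none in MDA-MB-231, and 11 of them lay in a single stretch of the HIST1 cluster. From HIST1H4D to HIST1H2BI, chr6:26188765-26273356 (hg38), all 21 annotated genes were at 0 in all 8 MDA-MB-231 libraries, 15 of them histone genes of the set. In SUM159PT, 11 of those 15 histone genes had counts, 974 in all, between 75 and 173 per library. The highest were HIST1H3G with 180 counts, HIST1H2AE with 168, HIST1H2BH with 119, HIST1H3E with 112, HIST1H2BG with 108 and HIST1H1D with 103. The genes on either side had counts in both lines, HIST1H2BE with 48 (MDA-MB-231) and 34 (SUM159PT), and HIST1H4H with 377 and 109. The plot of counts along the cluster shows the stretch as an unbroken row of zeros for MDA-MB-231 between flanks in which both lines were detected. DNA copy number was not measured here, and a missing segment, silent genes and reads that were not assigned cannot be told apart.

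**Figure D1:**
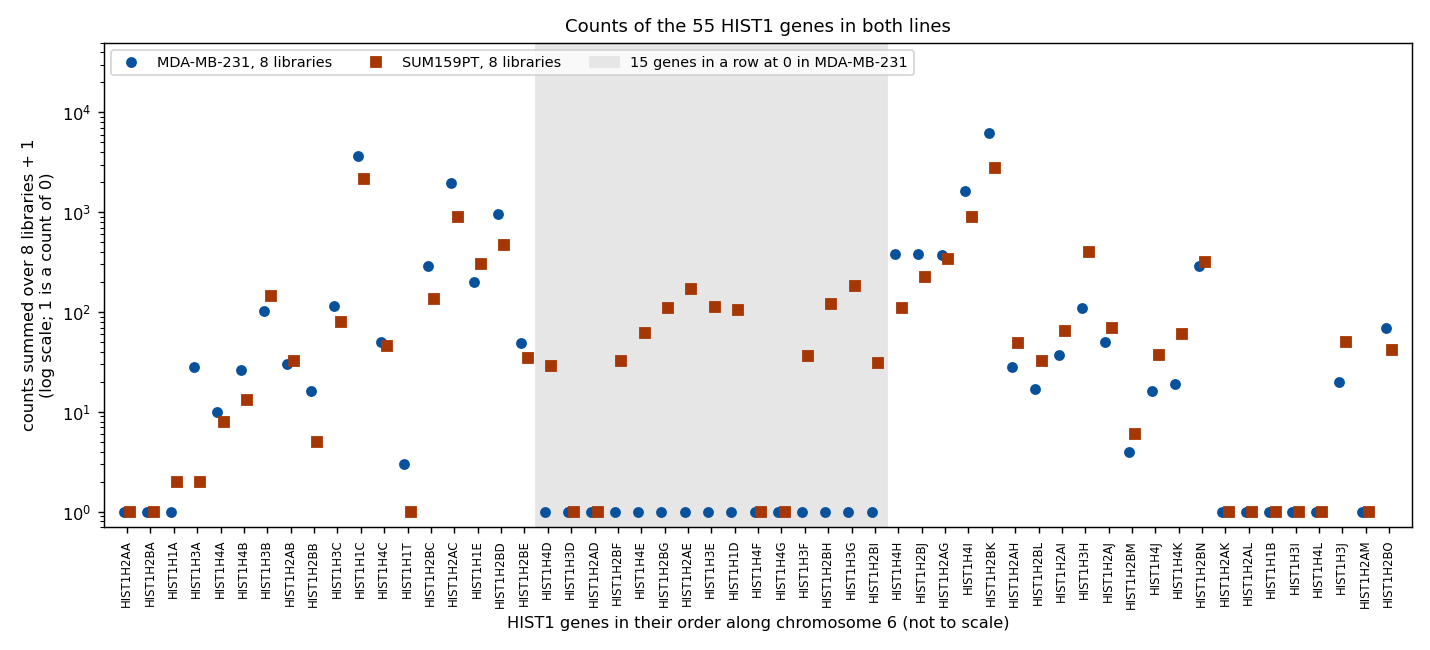
Counts summed over the 8 libraries of each line, plus 1 on a log axis, for the 55 HIST1 genes in their order along chromosome 6; circles are MDA-MB-231 and squares SUM159PT. In the shaded run of 15 genes every MDA-MB-231 point sits at a count of 0, while 11 of the SUM159PT points lie above it.

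HIST3H2A and HIST3H2BB, a head-to-head pair on chromosome 1 (chr1:228456979-228460470), showed the same split between lines. HIST3H2A encodes an H2A and had 542, 597, 612 and 714 counts in the 4 SUM159PT sgNTS libraries and 0 in each of the 8 MDA-MB-231 libraries. Against a floor of 3 counts over the 4 MDA-MB-231 sgNTS libraries it was at least 1034-fold higher in SUM159PT. HIST3H2BB, with 196 counts over the 8 SUM159PT libraries, was at least 37.3-fold higher by the same floor. TRIM11 and RNF187, the nearest well-expressed genes on either side, had 9545 and 15370 counts in MDA-MB-231 and 8540 and 26197 in SUM159PT.

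The whole set took a similar share of the counts in both lines, and 4 of the 5 leading genes were shared. Under sgNTS the 71 genes summed to 109 ± 3.64 CPM of library totals in MDA-MB-231 and 113 ± 4.02 in SUM159PT (SD, n = 4). HIST1H2BK, an H2B gene, gave 34.7% of all histone counts in MDA-MB-231, and 5 genes, HIST1H2BK, HIST1H1C, HIST1H2AC, HIST1H4I and HIST1H2BD, gave 80.7%. In SUM159PT, HIST3H2A led with 29.1%, and with HIST1H2BK, HIST1H1C, HIST1H2AC and HIST1H4I it gave 68.1%. The 12 genes listed as known for polyadenylated transcripts, which include HIST1H2BK, HIST1H1C, HIST1H2AC, HIST1H2BD and HIST3H2A, held 79.8% of the histone counts in MDA-MB-231 and 71.9% in SUM159PT.

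By family, under sgNTS and as summed CPM of library totals, H2B was the highest in MDA-MB-231 at 53.6 ± 2.09, ahead of H1 at 24.7 ± 0.986, H2A at 15.5 ± 0.504, H4 at 12.9 ± 1.02 and H3 at 2.51 ± 0.312. H2A and H4 were the nearest neighbours in that order and their libraries did not overlap. In SUM159PT the order was H2A at 51.4 ± 2.11, H2B at 29.5 ± 3.73, H1 at 17.1 ± 0.846, H4 at 7.64 ± 0.784 and H3 at 6.96 ± 0.752. There the ranges of H4 and H3 overlapped between libraries, although H4 was above H3 within each library. The lead of H2A in SUM159PT came from 1 gene: without HIST3H2A the family summed to 14.7 ± 0.566 CPM, its libraries, 14.2 to 15.3 CPM, overlapped those of MDA-MB-231, and the order was H2B, H1, H2A, H4 and H3 in both lines. Without HIST3H2A the SUM159PT total was 75.9 ± 3.82 CPM.

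Levels between genes were compared per kilobase of gene model. HIST1H2BK led in MDA-MB-231 under sgNTS at 105 ± 2.94 CPM per kb, followed by HIST1H1C, encoding the H1.2 linker histone, at 36.7 ± 1.57, HIST1H4I at 7.80 ± 0.989, HIST1H2AC at 6.73 ± 0.406 and HIST1H2BD at 5.63 ± 0.772. The range of HIST1H2AC overlapped those of both HIST1H4I and HIST1H2BD, although the order of these genes was the same within each library. In SUM159PT, HIST3H2A at 41.4 ± 2.07 and HIST1H2BK at 41.2 ± 6.42 CPM per kb overlapped, and HIST1H1C at 21.3 ± 1.49 and HIST2H2AC at 11.3 ± 0.484 followed. These values depend on the annotated length, since the models of HIST1H2BK, HIST1H1C and HIST2H2AC hold the coding sequence alone and those of HIST1H2AC and HIST1H4I do not.

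Members of a head-to-head pair were often unequal. HIST1H2BK and HIST1H2AH start 330 bases apart on opposite strands, with 6176 and 27 counts over the MDA-MB-231 libraries and 2770 and 48 in SUM159PT. HIST1H2AC and HIST1H2BC, 218 bases apart, had 1945 and 291 counts in MDA-MB-231 and 902 and 135 in SUM159PT. HIST1H2BJ and HIST1H2AG, 291 bases apart, were closer to each other, with 385 and 376 counts in MDA-MB-231 and 224 and 341 in SUM159PT. These are counts and not levels per length.

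The next comparison set SUM159PT against MDA-MB-231 under sgNTS, by edgeR's quasi-likelihood test with Benjamini-Hochberg adjustment over all genes tested. Of the 71 histone genes, 21 passed the filter on low counts. Of these, 8 were higher and 9 lower in SUM159PT at an adjusted p under 0.05, in a comparison that called 82.7% of all tested genes (40.4% higher, 42.3% lower), so the share of histone genes called, 81.0%, was near the background. The line cannot be told apart from anything else that differed between the tables. Of the 8 higher genes, HIST3H2A, HIST3H2BB, HIST1H2AE and HIST1H3G were at 0 in MDA-MB-231 and had passed the filter through SUM159PT alone.

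Among genes detected in both lines, HIST2H2AC, an H2A gene, had 0.743, 1.09, 1.16 and 1.17 CPM in MDA-MB-231 and 4.14 to 4.6 CPM in SUM159PT under sgNTS. Its libraries did not overlap and it was 4.24-fold higher in SUM159PT (log2 2.08, SE 0.17, adjusted p = 2.2e-08). HIST1H3H, an H3 gene, was 4.53-fold higher (adjusted p = 6.44e-08), and HIST1H1E, encoding the H1.4 linker histone, was 1.97-fold higher. HIST1H2BK was 2.52-fold lower in SUM159PT (log2 -1.33, SE 0.09, adjusted p = 1.6e-09). HIST1H4H, which had passed the filter through MDA-MB-231 alone, was 5.19-fold lower, HIST1H2AC 2.19-fold lower, HIST1H4I 2.01-fold lower and HIST1H1C 1.70-fold lower. Both linker histones that passed the filter thus moved in opposite directions between the lines, as did HIST2H2AC and HIST1H2AC among the H2A genes. HIST1H3B and HIST1H3C did not pass the threshold, at log2 0.34 (SE 0.29) and -0.32 (SE 0.29).

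With sgYES1 in SUM159PT the histone total was higher than with sgNTS, at 131, 139, 138 and 127 CPM of library totals against 110, 116, 116 and 108. The groups did not overlap (134 ± 5.52 against 113 ± 4.02), and they did not overlap with TMM-scaled totals either. The difference lay in H2B, at 42.3 ± 1.78 against 29.5 ± 3.73 CPM, and in H4, at 12.1 ± 1.17 against 7.64 ± 0.784, and neither family overlapped between guides. Much of the H2B difference was HIST1H2BK, without which H2B was 18.6 ± 1.86 against 13.9 ± 1.71 CPM. Those groups were barely apart, with the lowest sgYES1 library at 16.6 and the highest sgNTS library at 16.2 CPM. With TMM scaling these libraries were at 16.44 and 16.41. H2A was level at 51.6 ± 3.29 and 51.4 ± 2.11 CPM. H3 was 8.14 ± 1.01 against 6.96 ± 0.752 and overlapped. H1 was 19.7 ± 2.17 against 17.1 ± 0.846, with its lowest sgYES1 library at 18.3 and its highest sgNTS library at 18.2 CPM on library totals and overlapping groups with TMM scaling. Without HIST1H2BK and HIST1H1C the total was 92.8 ± 3.83 against 83.5 ± 2.24 CPM, and these groups did not overlap (88.4 to 96.5 and 80.3 to 85.6), nor did they with TMM scaling.

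**Figure D2:**
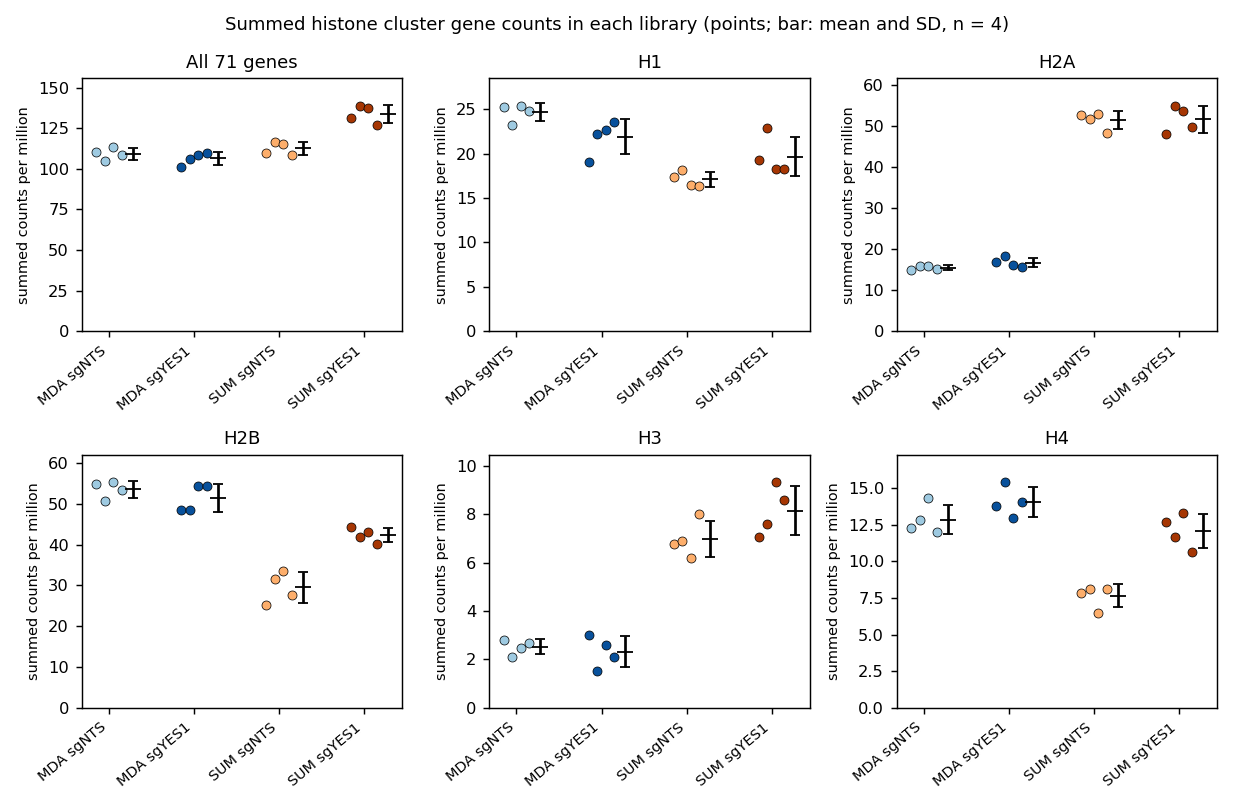
Summed CPM of library totals for all 71 histone genes and for each family, in MDA-MB-231 (MDA) and SUM159PT (SUM); points are libraries and the bar gives the mean and SD of 4. The sgYES1 libraries of SUM159PT lie above its sgNTS libraries in the total, H2B and H4, and the H2A points of SUM159PT include HIST3H2A, which is at 0 in MDA-MB-231.

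Gene by gene, 26 histone genes were tested in SUM159PT and 10 were called, 8 higher and 2 lower with sgYES1. The comparison called 39.4% of all tested genes (19.6% higher, 19.7% lower), so the 38.5% of histone genes called was near the background in number. By sign, 20 of the 26 fitted changes were above 0, with a median log2 change of 0.22 against -0.01 over all genes tested. All 10 H2B genes tested and all 3 H4 genes tested had fitted changes above 0, of which 3 and 2 passed the test. Of the 26, 5 had all 4 libraries at the minimum of the count filter with sgYES1 alone, H2B and H4 genes among them. Their fitted changes were all above 0, so the filter bears on these sign counts. Of the 8 called higher, 5 had all 4 libraries of both guides at the minimum of the count filter. The other 3, HIST1H4H, HIST1H2BG and HIST1H3E (the last 2 named after their values were seen), reached it in all 4 sgYES1 libraries but in 0, 1 and 1 sgNTS libraries, so they passed the filter through the guide in which they were high and their calls add little to the count.

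HIST1H2BK had 12.3, 17.6, 17.4 and 15.4 CPM with sgNTS and 23.1, 22.6, 26.1 and 22.3 CPM with sgYES1. Every sgYES1 library was above every sgNTS library, and the gene rose by 0.58 on the log2 scale (SE 0.10, adjusted p = 5.07e-05). HIST1H4I, an H4 gene, had 5.32, 5.53, 3.80 and 4.94 CPM with sgNTS and 7.39, 7.84, 8.40 and 7.21 CPM with sgYES1. Its groups were also apart, and it rose 1.56-fold (adjusted p = 0.000418). HIST1H2AC, an H2A gene, rose 1.52-fold, from 4.09 to 5.89 CPM over the sgNTS libraries to 6.52 to 8.36 over the sgYES1 libraries (adjusted p = 0.000949).

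HIST1H4H had 2, 7, 7 and 10 counts with sgNTS and 33, 12, 21 and 17 with sgYES1. The groups did not overlap, and the fitted rise was 2.87-fold (log2 1.52, SE 0.37, adjusted p = 0.0023) for a gene that passed the filter through sgYES1 alone. HIST1H3E, an H3 gene, had 7, 13, 3 and 5 counts with sgNTS and 18, 12, 20 and 34 with sgYES1. Its raw counts overlapped by 1 count between sgNTS replicate 2 and sgYES1 replicate 2 but its CPM did not, at most 0.781 and at least 0.791, and the fitted rise was 2.69-fold (adjusted p = 0.005). HIST1H2BN rose 1.61-fold, and 7.2% of its exon bases are shared with HIST1H2AK and HIST1H2AL. HIST1H2BG had a fitted rise of 1.99-fold with an adjusted p of 0.0288, and its call was lost without sgNTS replicate 1, sgYES1 replicate 1 or sgYES1 replicate 2 and with DESeq2.

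The H1 genes moved apart in SUM159PT. HIST1H1C had 13.9, 14.9, 12.9 and 12.9 CPM with sgNTS and 17.0, 19.8, 15.6 and 16.3 with sgYES1, and rose 1.25-fold (log2 0.33, SE 0.09, adjusted p = 0.00644). HIST1H1E had 3.05, 2.76, 2.96 and 2.81 CPM with sgNTS and 1.35, 2.11, 1.48 and 1.31 with sgYES1. It fell 1.87-fold (log2 -0.91, SE 0.20, adjusted p = 0.00105), with no overlap between groups. HIST1H1D did not pass the test (log2 0.13, SE 0.31).

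HIST2H2AC had 4.41, 4.14, 4.44 and 4.60 CPM with sgNTS and 2.03, 3.16, 2.48 and 3.51 CPM with sgYES1. It fell 1.58-fold (log2 -0.66, SE 0.17, adjusted p = 0.00415), again with no overlap. HIST3H2A, the most abundant histone gene of this line, had 38.7, 36.8, 38.2 and 34.6 CPM with sgNTS and 32.1, 39.3, 36.8 and 33.5 with sgYES1. Its groups overlapped, the log2 change was -0.07, and a 95% interval of -0.20 to 0.07 around it bounds the change at this depth. The 5 H2A genes tested therefore comprised 1 that rose, 1 that fell and 3 that did not pass, HIST1H2AG and HIST1H2AE being the others.

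**Figure D3:**
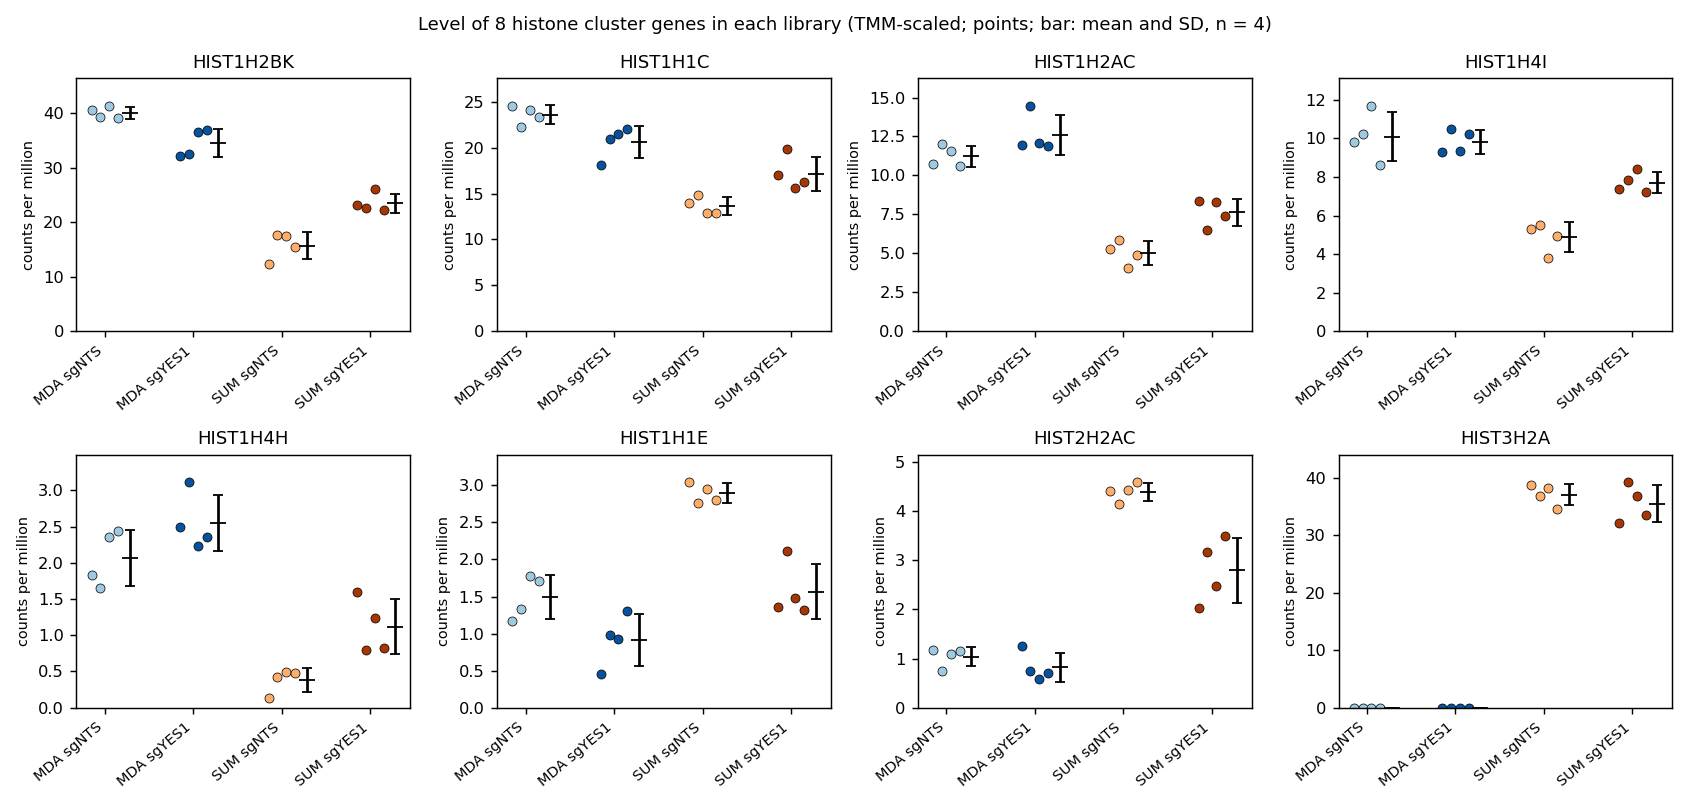
TMM-scaled CPM of 8 histone genes in every library of MDA-MB-231 (MDA) and SUM159PT (SUM), with the mean and SD of 4. HIST1H2BK is lower with sgYES1 in MDA-MB-231 and higher in SUM159PT, HIST1H1E and HIST2H2AC are lower with sgYES1 in SUM159PT, and HIST3H2A is at 0 in all MDA-MB-231 libraries.

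With sgYES1 in MDA-MB-231 the histone total was not separated from sgNTS, at 106 ± 3.83 against 109 ± 3.64 CPM of library totals. Without HIST1H2BK and HIST1H1C, both called lower there, the total ran from 49.7 to 51.9 CPM with sgYES1 and from 44.2 to 49.2 with sgNTS (50.4 ± 0.993 against 46.6 ± 2.04). These groups did not overlap, the sgYES1 libraries being the higher. Leaving out this pair was chosen after the data were seen, and leaving out genes that fell itself moves the difference upward. With TMM scaling these ranges overlapped, at 48.5 to 51.4 and 44.9 to 50.1. H2B without HIST1H2BK was likewise apart on library totals, at 15.5 to 17.5 against 12.1 to 15.2 CPM, and overlapping with TMM scaling, at 15.2 to 17.3 against 12.3 to 15.5. H2A, H2B, H3 and H4 with all their genes overlapped between guides. H1 ran from 19.1 to 23.6 CPM with sgYES1 and from 23.2 to 25.4 with sgNTS on library totals, which overlap, and from 18.6 to 23.3 against 23.6 to 25.9 with TMM scaling, which do not. Of the 71 genes, 17 were tested and 3 were called, 1 higher and 2 lower, in a comparison that called 42.8% of all tested genes (20.8% higher, 22.1% lower). The share of histone genes called was 17.6%, and 6 of the 17 had an unadjusted p under 0.05. The median log2 change was -0.12 against 0.01 over all genes tested, and 12 of 17 fitted changes were below 0. Of the 17, 4 had all their libraries at the minimum of the count filter with sgNTS alone. Their fitted changes were all below 0, so the filter bears on this sign count and median. Over all genes, 48.5% of the calls were higher with TMM scaling and 59.8% with library totals alone.

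HIST1H2BK had 40.6, 39.3, 41.4 and 39.1 CPM with sgNTS and 32.2, 32.5, 36.5 and 37.0 CPM with sgYES1 in MDA-MB-231. All sgYES1 libraries were below all sgNTS libraries, and it fell 1.16-fold (log2 -0.21, SE 0.06, adjusted p = 0.00749). HIST1H2BD, another H2B gene, had 5.53, 3.98, 4.88 and 5.22 CPM with sgNTS and 5.71, 7.16, 7.68 and 6.77 with sgYES1. It rose 1.39-fold (log2 0.47, SE 0.12, adjusted p = 0.00685), so the 2 called H2B genes moved in opposite directions. HIST1H1C fell 1.14-fold, from 22.3 to 24.6 CPM to 18.1 to 22.0 (adjusted p = 0.0356). This call was lost with library totals alone, with all 16 libraries in 1 fit and when any of 4 libraries was left out (sgNTS replicates 1 and 3, sgYES1 replicates 1 and 2). With sgNTS replicate 3 left out, HIST1H2BN was called higher, which made 2 higher genes. HIST1H1E had a log2 change of -0.66 (SE 0.27, adjusted p = 0.064), HIST1H2BJ of -0.38 (SE 0.17, adjusted p = 0.0822) and HIST1H2BN of 0.44 (SE 0.20, adjusted p = 0.0958), and none of these passed.

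**Figure D4:**
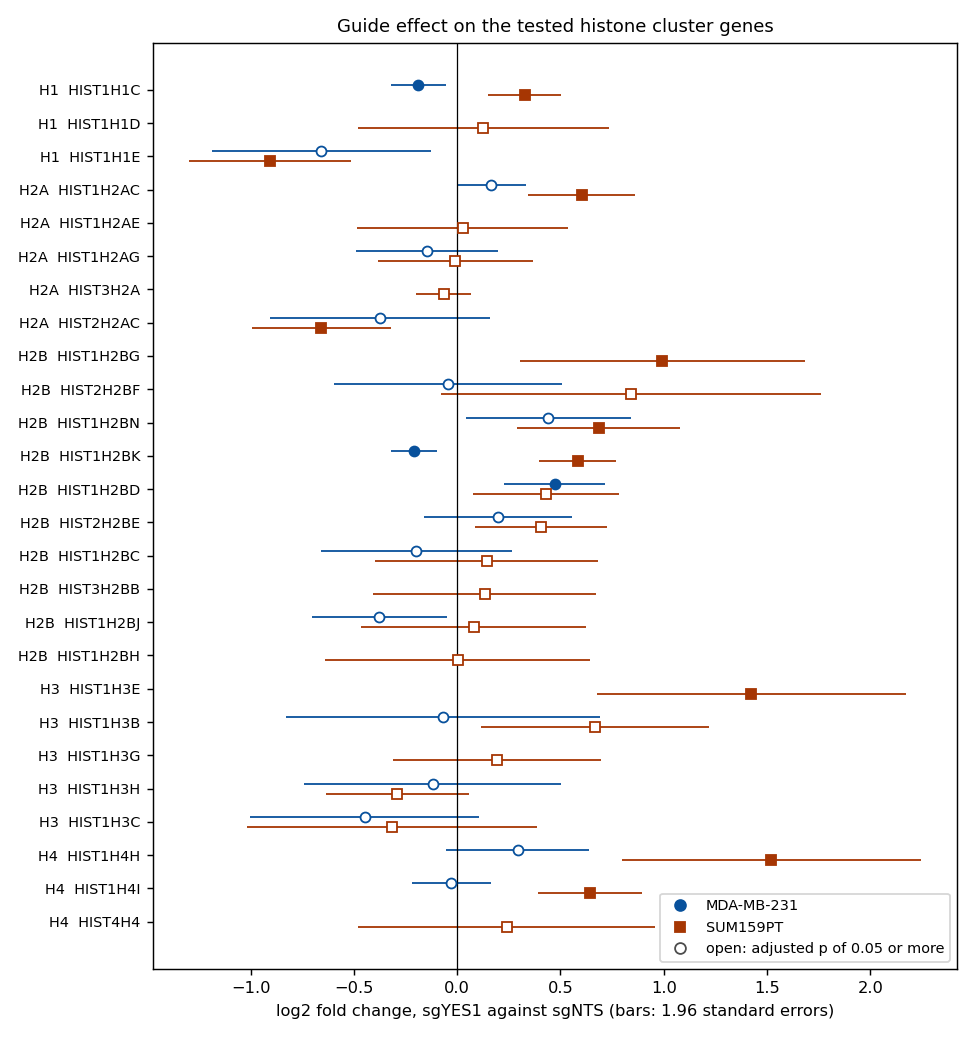
Log2 fold change of sgYES1 against sgNTS for the 26 tested histone genes, grouped by family, with bars of the 95% interval; circles are MDA-MB-231, squares SUM159PT, and filled symbols have an adjusted p under 0.05. The 9 genes with no circle were not tested in MDA-MB-231, and HIST1H2BK and HIST1H1C have filled symbols on opposite sides of 0.

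The difference between the lines in the guide effect was tested as an interaction over all 16 libraries. Of 18 histone genes with counts in both lines that could be tested, 5 were called, all with a higher change in SUM159PT than in MDA-MB-231, in a comparison that called 24.5% of all tested genes (12.7% higher, 11.9% lower). Histone genes at 0 in a line were left out, since no difference can be fitted for them. HIST1H2BK differed by 0.78 (SE 0.11, adjusted p = 1.71e-05) and HIST1H1C by 0.50 (SE 0.11, adjusted p = 0.00177) on the log2 scale, each called lower in MDA-MB-231 and higher in SUM159PT. HIST1H4I differed by 0.66 (SE 0.16, adjusted p = 0.00335), having a log2 change of -0.03 (SE 0.10) in MDA-MB-231. HIST1H4H differed by 1.22 (SE 0.40, adjusted p = 0.0285), which was lost without SUM159PT sgNTS replicate 1 or sgYES1 replicate 1. HIST1H2AC differed by 0.43 (SE 0.15, adjusted p = 0.0448), which was lost in 8 of the 16 fits that left out a library and without the filter on low counts. Without SUM159PT sgYES1 replicate 1 the count of calls was 3. For HIST1H1E and HIST2H2AC, called lower in SUM159PT alone, the difference did not pass (-0.26, SE 0.33, and -0.29, SE 0.32), so these genes are not shown to respond differently in the lines.

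Sorted by annotated 3′ end, a grouping chosen after the data were seen, 29 genes had a model reaching 100 bases or more past the stop codon, 35 ended at the stop codon and 7 lay between. In SUM159PT, 19 of the long models were tested, with 6 higher and 0 lower, which is 31.6% called against 39.4% of all genes tested (19.6% higher, 19.7% lower). HIST1H4H, HIST1H2BG and HIST1H3E, among these 6, passed the count filter through sgYES1 alone, the guide in which they were high, and add little to this split. Of the models ending at the stop codon 6 were tested, with 2 higher and 1 lower. In MDA-MB-231, 11 long models gave 1 higher and 0 lower (9.1% called), and 5 models ending at the stop codon gave 0 higher and 2 lower, against 42.8% called over all genes. HIST1H1E, with 57 bases past the stop codon, was the 1 short model tested in each line. All 29 long models had a count in SUM159PT, against 22 of the 35 that ended at the stop codon. In MDA-MB-231 the same numbers were 19 of 29 and 17 of 35. Among the models ending at the stop codon, HIST2H3PS2, HIST1H3D, HIST1H2AD, HIST1H2AK and HIST1H2AM were at 0 in both lines. These share 88.0% or more of their exon bases with another gene. Models ending at the stop codon were also mostly shorter than the long ones. The part of sharing and of length in these detection counts was not tested. For histone mRNAs whose 3′ part lies outside the model, reads from that part were not counted for the gene.

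Other RNAs without a poly-A tail were examined beside the histone genes, as a list of 24 symbols covering small nuclear, small nucleolar and Cajal body RNAs, 7SL, 7SK and others. The full list summed to between 4.28 and 6.74 CPM with sgNTS and between 15.8 and 19.3 with sgYES1 in MDA-MB-231, and to between 18.3 and 29.5 and between 30.9 and 39.2 in SUM159PT. RN7SL2, a 7SL RNA, made up most of the sgNTS sums and did not pass the test in either line (log2 0.49, adjusted p = 0.0723, and 0.27, adjusted p = 0.0864). Left without RN7SL2, the list summed to between 0.574 and 0.936 CPM with sgNTS and between 9.67 and 11.4 with sgYES1 in MDA-MB-231, and to between 0.356 and 0.910 and between 6.38 and 8.12 in SUM159PT. RNU5A-1, the U5 small nuclear RNA, had 0 to 3 counts with sgNTS and 57 to 83 with sgYES1 in MDA-MB-231, and 0 to 1 and 77 to 86 in SUM159PT. SNORD3A, a U3 small nucleolar RNA, had 1 to 4 counts and 24 to 42 in MDA-MB-231, and 0 to 1 and 11 to 14 in SUM159PT. Neither overlapped between guides in either line. In this list, 13 and 17 of its 25 entries were at 0 in all sgNTS libraries of MDA-MB-231 and SUM159PT, and 10 and 12 in all sgYES1 libraries. Of the entries that could be tested, 3 of 4 were called higher in MDA-MB-231 and 2 of 3 in SUM159PT, and each of these reached the count minimum in 0 sgNTS libraries, so the filter fixed the direction of these counts. The summed list was higher with sgYES1 in both lines, without overlap. The histone total was higher with sgYES1 in SUM159PT and overlapped between guides in MDA-MB-231. Without HIST1H2BK and HIST1H1C, both called lower in MDA-MB-231, the total there was higher on library totals but overlapped with TMM scaling. That pair was left out after the data were seen, and leaving out genes that fell itself moves the difference upward. The part of the RNAs without a poly-A tail in the histone results was not tested.

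Genes that drive S phase, when histone mRNA is made, were taken as a list of 40. In MDA-MB-231, 38 of the 40 fell and 0 rose with sgYES1, with a median log2 change of -0.405 against 0.01 over all genes. Of all genes tested in that line, 42.8% were called (20.8% higher, 22.1% lower). RRM2, a subunit of ribonucleotide reductase, changed by -0.70 (SE 0.04), TYMS, thymidylate synthase, by -0.92 (SE 0.05), and MCM6, of the replicative helicase, by -0.61 (SE 0.03). In SUM159PT, 11 rose and 8 fell, with a median of -0.002, or 47.5% called against 39.4% of all genes tested. There FEN1, the flap endonuclease, changed by 0.47 (SE 0.06), UHRF1 by 0.29 (SE 0.05) and PCNA, the replication clamp, by 0.24 (SE 0.05), while DTL changed by -0.29 (SE 0.05). The difference between lines was called higher in SUM159PT for 33 of the 40 and lower for 0, or 82.5% called against 24.5% of all genes. The part of the S-phase genes in the histone results was not tested.

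The genes for transcription and 3′ processing of histone mRNA were a list of 35 symbols, of which 33 matched and were tested. In MDA-MB-231, 1 rose and 14 fell, with a median of -0.11. That is 45.5% called, near the 42.8% of all genes tested (20.8% higher, 22.1% lower). SLBP, which binds the stem-loop, fell from 138 to 119 CPM (log2 -0.22, SE 0.04, adjusted p = 0.000429), and NPAT, the activator of histone gene transcription, fell from 44.1 to 37.9 CPM (log2 -0.22, SE 0.05, adjusted p = 0.00309). CCNA2, CDK2 and CCNE2, cyclins and the kinase of the S-phase entry step, changed by -0.43, -0.41 and -0.70. In SUM159PT, 9 rose and 2 fell, with a median of 0.001, or 33.3% called against 39.4% of all genes tested (19.6% higher, 19.7% lower). CDC25A, the phosphatase that activates CDK2, changed by 0.56 (SE 0.05), CCNE1 by 0.63 (SE 0.10) and SRRT, an RNA-processing partner of the cap-binding complex, by 0.44 (SE 0.05), whereas MIF4GD, an SLBP-interacting translation factor, changed by -0.39 (SE 0.07). SLBP and NPAT did not pass in SUM159PT, at 0.10 (SE 0.05) and -0.09 (SE 0.10), and the difference between lines was called for SLBP (0.31, SE 0.06, adjusted p = 0.000866) but not for NPAT (0.13, SE 0.11).

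Replacement histones are also made outside S phase, mostly from polyadenylated mRNAs. Under sgNTS the 12 genes listed summed to 2300 ± 60.2 CPM in MDA-MB-231 and 2303 ± 57.5 CPM in SUM159PT. Of the 10 genes tested in each line, 2 rose and 5 fell in MDA-MB-231, and 1 rose and 4 fell in SUM159PT. Over all genes tested, 42.8% were called in MDA-MB-231 (20.8% higher, 22.1% lower) and 39.4% in SUM159PT (19.6% higher, 19.7% lower). H2AFV, an H2A.Z gene, fell in both lines, by 0.35 (SE 0.03) and by 0.25 (SE 0.05) on the log2 scale, as did CENPA, the centromeric H3, by 0.40 (SE 0.06) and by 0.38 (SE 0.07). H2AFX rose in SUM159PT by 0.48 (SE 0.08) and H1FX fell by 0.50 (SE 0.05), whereas H2AFJ rose in MDA-MB-231 by 0.51 (SE 0.08) and H2AFZ fell by 0.26 (SE 0.04). Histone chaperones, 21 genes tested in each line, gave 1 higher and 12 lower in MDA-MB-231 and 1 higher and 3 lower in SUM159PT. Their shares called were 61.9% and 19.0%, beside the same 42.8% and 39.4%. ASF1B, an H3-H4 chaperone, changed by -0.47 (SE 0.04) in MDA-MB-231 and HJURP, the CENPA chaperone, by -0.49 (SE 0.06). RBBP7 fell in both lines, by 0.37 (SE 0.04) and by 0.26 (SE 0.04), and ANP32E fell in MDA-MB-231 by 0.42 (SE 0.05). In SUM159PT, NAP1L1 changed by -0.21 (SE 0.04), ATRX by -0.20 (SE 0.06) and DAXX by 0.19 (SE 0.04).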

How the data were processed

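For each cell line the authors deposited 1 table of raw, unnormalized counts per gene. HISAT2 2.0.5, the hg38 build and featureCounts 1.5.0-p3 are named, per the submitters' processing notes. Per the labels' protocols, mRNA was purified on poly-T beads and primed with random hexamers, and the protocol covers directional and non-directional libraries. How strand and multi-mapping reads were handled is not given in the sources here, and near-identical histone genes such as HIST2H2AA3 and HIST2H2AA4 and overlapping genes are uncertain.

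The quasi-likelihood test of edgeR (version 4.0.16, under R 4.3.3) was run on TMM-normalized counts of genes passing filterByExpr (count 10, total 15), two-sided, with Benjamini-Hochberg adjustment over all genes tested and calls under 0.05. The 8 libraries of a line were fitted alone, the difference between lines as an interaction over 16, and the lines under sgNTS on 8. On simulated counts in which 200 genes with a mean above 20 counts were changed 2-fold, the test recovered 197 for the guide in MDA-MB-231 (11 other calls among 15396 genes tested), 199 in SUM159PT (11 among 14489), 193 for the difference between lines (5 among 16089) and 198 between lines (10 among 15380). CPM of single genes is TMM-scaled within a line, and CPM of histone sums and of list sums uses library totals unless TMM scaling is named. Errors are SD of 4 libraries or SE of the fitted change, and 95% intervals use the normal quantile. DESeq2 1.42.0 was an alternative. Depth was 17.2 to 25.1 (in units of 1e6 counts) in MDA-MB-231 and 14.4 to 20.9 in SUM159PT, and floors of 3 counts cover counting error only.

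The histone genes, the lists and the tests were chosen with earlier results of these data known. Genes were named by rule: the 4 highest per family, the 6 smallest p per guide comparison, the 4 smallest p of the difference and of the line comparison, and the 4 smallest p per list and guide comparison. Exon sharing, 3′ ends and the stem-loop pattern were read from GENCODE 29.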

Additional observations from a re-analysis of the deposited data

Results flagged for a closer look

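In MDA-MB-231 with sgYES1, HIST1H2AC was at 14.5 CPM in replicate 2, away from 11.9, 12.1 and 11.9 CPM in the other 3. In MDA-MB-231 with sgNTS, HIST2H2BE was at 2.06 CPM in replicate 4, against 1.83, 1.86 and 1.84 CPM. These were 2 of 90 groups of 4 libraries with at least 40 counts, and chance flags about 1 in 20 such groups.

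The guide effect (log2) was higher in SUM159PT than in MDA-MB-231 by the interaction test, with these differences, for HIST1H2BK (0.78), HIST1H4I (0.66), HIST1H4H (1.22), HIST1H1C (0.50) and HIST1H2AC (0.43).

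Histone pseudogenes, outside the protein-coding set, also held counts. HIST2H2BC had 519 counts over the 8 MDA-MB-231 libraries and 643 in SUM159PT, and HIST2H2BD had 121 and 242. HIST2H2BA and HIST2H3DP1, neighbours on chromosome 1, had 358 and 295 counts in MDA-MB-231 and 0 in SUM159PT.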

How the results depend on the processing

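Of 1033 alternative values for 67 single-gene results, 965 kept their direction and side of the threshold, and none of the histone counts or single-gene calls reversed. In MDA-MB-231, leaving out each library gave 1 to 2 genes higher and 1 to 3 lower, and library totals alone gave 1 lower (HIST1H1C lost). In SUM159PT, leaving out each library gave 8 to 9 higher and 2 lower, and DESeq2 gave 7 higher. The difference between lines kept 3 to 5 higher calls over fits without a library. Same-numbered libraries correlated between -0.106 and 0.0486 in their deviations, so the numbers do not pair them, and a replicate block gave 3 higher calls for the difference between lines (HIST1H2AC and HIST1H4H lost), 8 higher in SUM159PT and 2 lower in MDA-MB-231 (HIST1H1C lost, HIST1H1E gained). Between lines under sgNTS, no filter on low counts gave 19 higher calls, with more genes tested, and leaving out each library gave 8 to 12 higher and 8 to 9 lower. Calls over all genes for the difference were 51.7% higher with TMM and 57.9% with DESeq2 size factors. The histone total differed by -2.77 CPM (sgYES1 minus sgNTS, overlapping) in MDA-MB-231 and 21.2 in SUM159PT. Without HIST1H2BK and HIST1H1C, a choice made after the data were seen, the differences were 3.86 and 9.25 CPM on library totals and 2.35 (overlapping) and 7.74 with TMM scaling. Both genes were called lower in MDA-MB-231 and higher in SUM159PT, so leaving them out itself moves the differences up and down, respectively. Depth limits genes under about 10 counts a library, which is most of the set.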
